A study of Homo sapiens with 9 samples.

Results

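Binding of γH2AX was compared between lymphoblastoid cells in which replicative DNA polymerases were inhibited with aphidicolin (APH) and cells whose bases were alkylated with methyl methanesulfonate (MMS). The comparison rests on 4 of the 8 peak lists of the study, the replicates APH 1 and APH 2 and the replicates MMS 1 and MMS 2, and on 54334 autosomal peaks of the 213467 peaks in all lists. All cells were of one human B-lymphocyte line, which the sample labels call GM09027A and the study GM07027, grown in suspension. APH was given at 0.1 µg/mL and MMS at 200 µM, each for 24 h, and the other lists are of untreated cells and of cells given hydroxyurea (HU) at 2 mM for the same time. The replicates were independent biological replicates by the study's account, and the results hold for this one line. APH 1 held 17658 autosomal peaks and APH 2 14009, against 12202 in MMS 1, 10465 in MMS 2, and 4779 and 4327 in the untreated lists. For this reason each count is given as a share, the number of peaks per 10000 autosomal peaks of its list. Read depth is unknown, and a list of peaks cannot tell a weak signal in many cells from a strong one in few.

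H2AX is a histone variant that the checkpoint kinases phosphorylate around stalled forks and DNA breaks, and the phosphorylated form, γH2AX, marks the surrounding chromatin. APH blocks the replicative polymerases and slows forks everywhere, whereas MMS methylates bases, above all guanine and adenine, and the lesions stall polymerases where they arise until base excision repair removes them. Common fragile sites (CFSs) are large regions that show gaps and breaks on metaphase chromosomes after mild APH treatment. The best known, FRA3B and FRA16D, lie in the long genes FHIT, which encodes a dinucleoside triphosphate hydrolase, and WWOX, which encodes an oxidoreductase with WW domains.

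Some sites illustrate what the lists contain. They were found in both lists of one treatment and met no peak of the other, and 200 bases of the reference (GRCh38, plus strand) at the centre of each are shown, with CG dinucleotides in capitals. The sites in FHIT and WWOX, the strongest of this kind in each gene, lie in introns of the 2 genes in which the treatments differed most, TBCD carries the strongest such site of APH by mean fold enrichment, FAM53B carries the strongest of MMS, and SSRP1 the strongest of MMS over an exon among those named here. A peak of 1 untreated list met the FHIT site and peaks of both met the TBCD site, and no untreated peak met the others. Peaks of both HU lists met the SSRP1 site. In the labels below, APH only means without an MMS peak and MMS only without an APH peak. The labels do not refer to the untreated and HU lists. The FHIT site lay at chr3:60571664-60574637, the WWOX site at chr16:78515722-78516210, the site in an intron of TBCD, a tubulin-folding cofactor, at chr17:82802148-82803580, the site in an intron of FAM53B at chr10:124658066-124659633, and the site over an exon of SSRP1, a subunit of the histone chaperone FACT, at chr11:57331498-57333015.
FHIT, APH only: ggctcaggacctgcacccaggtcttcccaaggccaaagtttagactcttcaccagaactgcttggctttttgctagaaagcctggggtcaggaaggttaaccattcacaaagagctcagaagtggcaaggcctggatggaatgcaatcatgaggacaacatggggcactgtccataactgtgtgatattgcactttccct
WWOX, APH only: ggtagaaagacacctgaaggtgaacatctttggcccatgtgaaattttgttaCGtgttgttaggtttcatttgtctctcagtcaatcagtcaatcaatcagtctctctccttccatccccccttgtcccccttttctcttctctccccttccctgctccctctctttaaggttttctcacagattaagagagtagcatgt
TBCD, APH only: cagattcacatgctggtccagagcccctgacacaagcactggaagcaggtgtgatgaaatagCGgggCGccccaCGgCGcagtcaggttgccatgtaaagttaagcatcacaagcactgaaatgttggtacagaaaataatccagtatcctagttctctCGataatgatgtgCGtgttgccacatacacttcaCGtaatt
FAM53B, MMS only: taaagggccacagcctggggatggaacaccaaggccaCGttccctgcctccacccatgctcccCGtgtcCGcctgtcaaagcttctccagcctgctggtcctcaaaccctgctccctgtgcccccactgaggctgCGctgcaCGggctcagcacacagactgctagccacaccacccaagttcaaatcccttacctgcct
SSRP1, MMS only: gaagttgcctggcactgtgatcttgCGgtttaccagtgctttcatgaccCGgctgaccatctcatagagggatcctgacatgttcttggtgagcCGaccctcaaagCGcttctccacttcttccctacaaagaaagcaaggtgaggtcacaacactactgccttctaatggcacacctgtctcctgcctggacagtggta
The GC content of these stretches was 50% in FHIT, 44.5% in WWOX, 48% in TBCD, 62% in FAM53B and 52% in SSRP1. A CG (its own reverse complement, so counted once) was found in 82.7% and 79.9% of the 200-base centres of APH peaks, in 80.1% and 77.4% of those of MMS peaks, and in 72.4% of 55116 evenly spaced autosomal windows. Runs of 6 A or 6 T (AAAAAA or TTTTTT, which covers both strands) were found in 20.6% and 22.3% of APH centres, 22.6% and 25.2% of MMS centres, 20.7% and 22.8% of untreated centres, and 35.3% of the windows. In both measures the replicates of a treatment differed about as much as the treatments, and APH 2 and MMS 1 lay close to each other.

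The clearest overall difference was the position of peaks relative to genes. Of the autosomal peaks, 55.9% in APH 1 and 55.6% in APH 2 overlapped a protein-coding gene by at least 1 bp, against 65.8% in MMS 1 and 65.9% in MMS 2. The mean was 55.8% ± 0.270 under APH and 65.8% ± 0.0953 under MMS (SD, n = 2), a difference of -10.1 percentage points. The replicates of each treatment differed by far less than this, although an exact permutation test of 2 against 2 lists cannot go below p = 0.333, the value obtained. Untreated lists stood at 51.3% and 51.3%, and HU lists at 56.4% and 56.3%, so that the MMS lists were the highest of all 8. The difference was -9.62 points without the terminal 5 Mb of chromosomes and -11.3 points without genes of 500 kb or more. It was smaller, -8.19 points, when covered bases were counted in place of peaks. Genes of every class below 500 kb took part: genes under 50 kb held 18.7% and 17.4% of APH peaks against 23.3% and 20.9% of MMS peaks, and genes of 50 to 200 kb held 21.4% and 22.1% against 27.1% and 27.1%. Exons were met by 14.0% and 13.6% of APH peaks and by 17.5% and 15.6% of MMS peaks. At gene starts the lists overlapped, with 2.10% and 1.81% of APH peaks and 2.17% and 1.84% of MMS peaks within 1 kb of one (exact permutation p = 0.667).

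Chromosome ends showed the opposite order. The terminal 1 Mb held 8.94% and 9.92% of APH peaks and 6.09% and 5.96% of MMS peaks, with no overlap between the treatments (exact permutation p = 0.333). In untreated cells the same regions held 20.3% and 20.6% of peaks, and in HU-treated cells 1.62% and 1.78%, so both APH and MMS fell between these. The median GC content of 500 bp around peaks was 47.4% in APH 1, 46.0% in APH 2, 45.8% in MMS 1 and 44.2% in MMS 2. Here the difference between treatments, 1.7 points, was only slightly above the 1.4 and 1.6 points between replicates of a treatment. APH 1 stood apart from the other 3 lists in strength. In APH 1, 52.8% of peaks had a −log10 p under 3.2, close to the lowest value of 3.00 in the list, against 7.70% in APH 2, 8.02% in MMS 1 and 10.4% in MMS 2. With equal numbers of the strongest peaks, 10465 from each list, the share in genes differed by -9.95 points and the share in the terminal 1 Mb by 5.63 points.

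**Figure D1:**
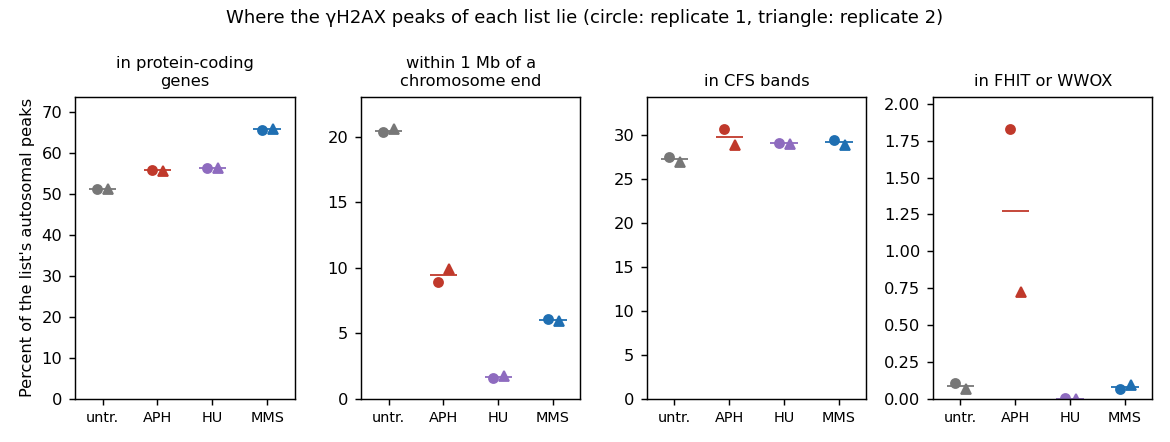
Percent of each list's autosomal peaks (vertical axes, starting at 0) that overlap protein-coding genes, the terminal 1 Mb of chromosomes, CFS bands, and FHIT or WWOX, for untreated, APH, HU and MMS lists; circles are replicate 1, triangles replicate 2 and bars their mean. The MMS lists lie at 65.8% and 65.9% in the first panel, above every other list, and the APH lists alone rise above 0.7% in the last.

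Among genes, the largest local differences lay at the fragile sites FRA3B and FRA16D. FHIT (1504 kb, chr3:59747277-61251452) was met by 163 peaks in APH 1 and 48 in APH 2, but by 5 in MMS 1 and 4 in MMS 2. WWOX (1113 kb, chr16:78099654-79212667) was met by 160 and 53 APH peaks and by 3 and 6 MMS peaks. Both APH lists were high and all other lists were low: untreated cells gave 0 and 2 peaks in FHIT and 5 and 1 in WWOX, and HU-treated cells gave 2 and 1 in FHIT and 0 and 0 in WWOX. As shares, FHIT had 92.3 and 34.3 peaks per 10000 under APH against 4.10 and 3.82 under MMS. The log2 difference of share + 1, fitted with limma over 447 genes, was 3.53 ± 0.39 (SE) for FHIT (Benjamini-Hochberg adjusted p = 8.14e-17) and 3.63 ± 0.39 for WWOX (adjusted p = 2.07e-17). The SE and p of these fits, here and below, lean largely on variance pooled over all tested features. They do not measure how far the replicates of a single gene or bin differ. APH 1 exceeded APH 2 by more than the MMS lists differed from each other in both genes. Without APH 1 the log2 differences were 2.83 and 3.01. Faint peaks were a smaller part here than in the whole of APH 1: 15 of the 163 FHIT peaks and 44 of the 160 WWOX peaks of APH 1 had a −log10 p under 3.2. Among equal numbers of the strongest peaks, FHIT kept 156, 38, 4 and 4 peaks and WWOX 134, 44, 3 and 6 (APH 1, APH 2, MMS 1, MMS 2), with log2 differences of 3.96 and 3.87, but no gene passed the adjusted test in that setting (adjusted p = 0.201 for both). Neither gene passed without MMS 1 (adjusted p = 0.0708 and 0.0846).

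The peaks were spread along both genes. Each of the first 15 windows of 100 kb from the start of FHIT held at least 2 APH 1 peaks and at most 18, and the windows with 17 and 18 peaks began 400 and 800 kb from the start. In WWOX the densest windows of APH 1 began 400 and 600 kb from the start, with 25 and 23 peaks, and the latter was also the densest of APH 2, with 11. Nearly all peaks lay in introns. Exons of FHIT were met by 5 of 163 APH 1 peaks and none of 48 APH 2 peaks, and exons of WWOX by 8 of 160 and 2 of 53. At single sites, 20 merged sites in FHIT and 23 in WWOX were found in both APH lists and in no MMS list. The median width of APH 1 peaks was 668 bp in FHIT and 762 bp in WWOX, and that of APH 2 peaks 529 and 513 bp.

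**Figure D2:**
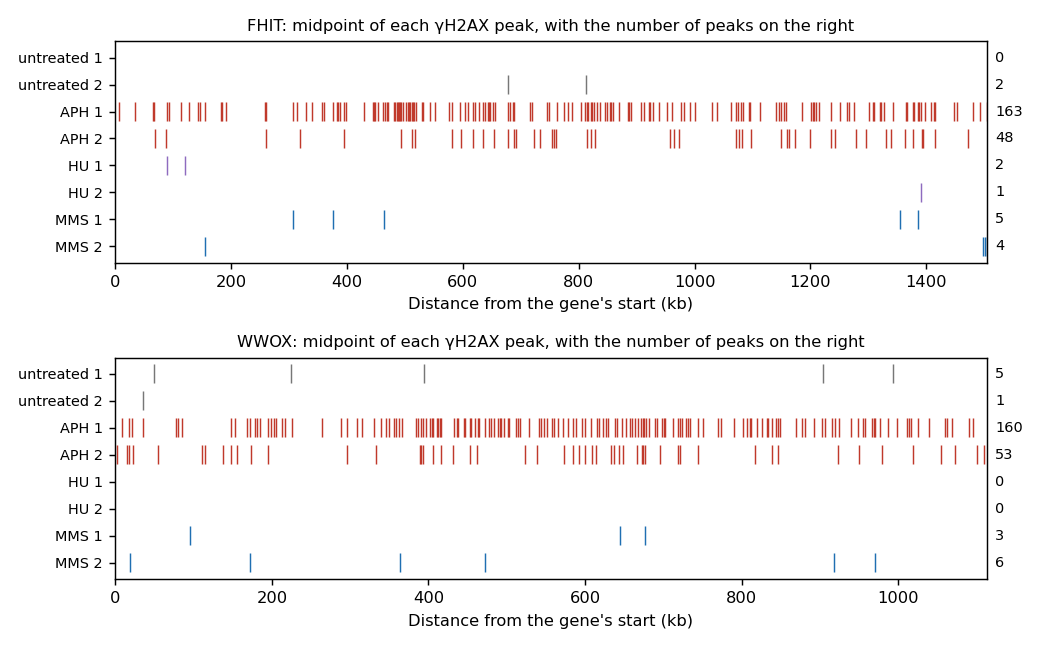
Midpoints of γH2AX peaks along FHIT (top) and WWOX (bottom), 1 row for each of the 8 lists, with the distance from the gene's start in kb on the horizontal axis and the number of peaks at the right. Peaks of APH 1 and APH 2 run from one end of both genes to the other, while MMS 1 and MMS 2 hold 3 to 6 peaks in each.

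The difference reached beyond these 2 genes. PTPRG, a receptor tyrosine phosphatase gene beside FHIT, held 18 and 8 APH peaks and 2 and 0 MMS peaks (log2 difference 2.42 ± 0.51, limma adjusted p = 1.51e-04). MAF, a transcription factor gene whose annotation overlaps the end of WWOX, held 25 and 11 against 5 and 2 (1.59 ± 0.40, adjusted p = 0.00291), so some of these peaks may be counted for both genes. The 5 adjoining 1 Mb bins from chr3:57000001-62000000 each had both APH lists above both MMS lists and together held 261 and 117 APH peaks against 15 and 20 MMS peaks. The first, chr3:57000001-58000000, lies outside the FRA3B band and did not pass limma (adjusted p = 0.0999). Its HU shares, 9.14 and 9.44 per 10000, were above its APH shares, 8.49 and 7.14. The 3 bins from chr16:77000001-80000000 held 207 and 69 against 12 and 10. The G-band of FRA3B (p14.2 on chromosome 3) had the largest gap of the CFS bands on the APH side, with shares of 130 and 64.2 per 10000 under APH and 10.7 and 12.4 under MMS.

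Across the genome, 1429 of 2887 bins of 1 Mb passed the filter, a mean share of at least 2 per 10000 over the 4 lists. Both APH lists lay above both MMS lists in 289 bins (20.2%), and both MMS lists above both APH lists in 331 (23.2%), while the lists overlapped in 809. With median-ratio scaling the numbers were 325 and 292, so the order of the directions turned and no balance can be read from it. limma called 15 bins higher under APH (1.05%) and 0 higher under MMS at an adjusted p of 0.05. At an unadjusted p under 0.05 there were 89 and 65 bins, and the smallest adjusted p on the MMS side was 0.0689. The 15 bins fall in 2 kinds. Of these, 6 cover FRA3B and FRA16D, from 58 to 62 Mb on chromosome 3 and from 78 to 80 Mb on chromosome 16. Of these 6, the largest differences were in chr16:78000001-79000000 with 139, 46, 3 and 4 peaks (APH 1, APH 2, MMS 1, MMS 2; log2 difference 3.67 ± 0.37) and chr3:60000001-61000000 with 122, 36, 3 and 0 (4.54 ± 0.52).

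The other 9 called bins lay within 5 Mb of a chromosome end, 8 of them in the terminal 1 Mb. In 6 of these 9 both untreated lists lay above both APH lists by share, but the untreated lists are much shorter. By number of peaks this held in chr9:1000001-2000000 alone, with 150 and 124 untreated peaks against 56 and 103 under APH. The first bin of chromosome 2 held 80, 69, 5 and 4 peaks (log2 difference 3.28 ± 0.28). This is 45.3 and 49.3 per 10000 in the APH lists and 4.10 and 3.82 in the MMS lists. The untreated share there was 92.1 and 80.9, from 44 and 35 peaks. The last bin of chromosome 5 reached 27.7 and 30.7 per 10000 with APH but 7.38 and 6.69 with MMS, and untreated cells had 87.9 and 106. The bin chr9:1000001-2000000 reached 31.7 and 73.5 with APH but 13.9 and 19.1 with MMS, and untreated cells had 314 and 287. In 7 of the 15 called bins, among them those of FRA3B and FRA16D, both untreated lists lay below both APH lists. The number of bins that passed depended on single lists: it was 1 without APH 1, 0 without APH 2, 25 without MMS 1 and 18 without MMS 2, and 0 with equal numbers of the strongest peaks.

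**Figure D3:**
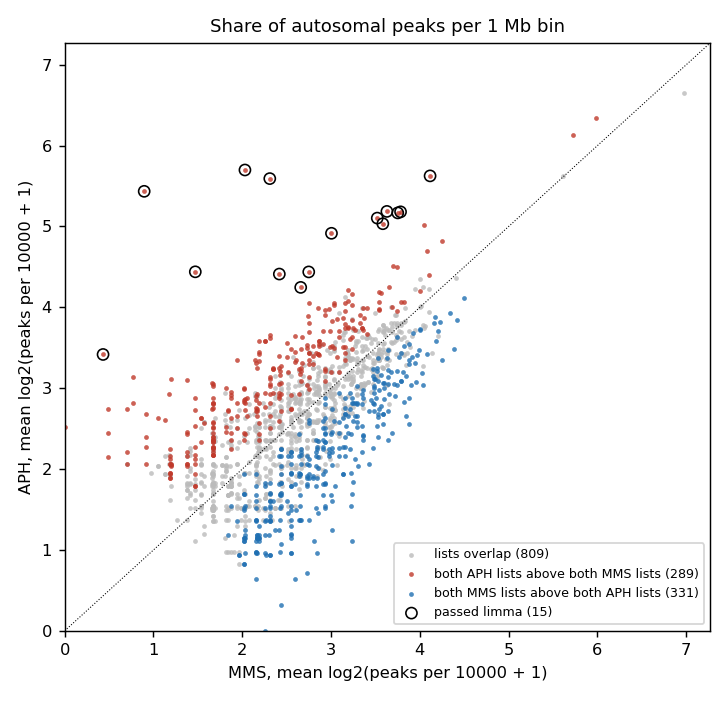
Mean log2(peaks per 10000 + 1) of the 2 MMS lists (horizontal) against that of the 2 APH lists (vertical) for 1429 bins of 1 Mb; red and blue bins are those in which both lists of one treatment lie above both of the other, circles mark the 15 bins that passed limma, and the dotted line is equality. All 15 circled bins lie above the line, and the blue bins form a band without such outliers.

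On the MMS side the gaps were smaller and the peak numbers low. The bin with the largest gap, chr18:2000001-3000000, which includes the starts of NDC80, encoding a kinetochore protein, and SMCHD1, encoding a chromatin repressor, held 1 and 0 APH peaks and 5 and 5 MMS peaks (log2 difference -2.12 ± 0.76, limma adjusted p = 0.257). The next, chr16:65000001-66000000, with the cadherin gene CDH11, held 3 and 1 against 9 and 10 (-2.13 ± 0.52, adjusted p = 0.0689). The bin chr2:171000001-172000000, with the histone acetyltransferase gene HAT1 and the kinase gene TLK1, held 1 and 1 against 5 and 8, and both untreated lists had 0. The remaining 9 of the 12 bins with the largest gaps, on chromosomes 2, 5, 6, 8, 13, 14 and 18, held 0 to 4 APH peaks and 2 to 11 MMS peaks each. None of the 12 passed the adjusted test. The longest run of neighbouring bins on this side was chr21:32000001-36000000, with 27 and 28 APH peaks and 34 and 27 MMS peaks out of the smaller MMS lists.

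The 2 directions fell in different kinds of bins. Of the 53 tested bins at a chromosome end, both APH lists were above in 34 (64.2%) and both MMS lists in 4 (7.55%). Of the 871 tested bins at least 20 Mb from an end, APH was above in 142 (16.3%) and MMS in 222 (25.5%). By GC content, APH was above in 20 of 286 bins of the lowest quintile (6.99%) and MMS in 94 (32.9%), whereas in the fourth quintile the numbers were 86 (30.1%) and 42 (14.7%). Base composition also differed between replicates, since the bins of the lowest quintile held 11.6% of the peaks of APH 1, 17.1% of APH 2, 16.4% of MMS 1 and 21.2% of MMS 2. Its part in the bin differences was not tested. In CFS bands, APH was above in 95 of 478 bins (19.9%) and MMS in 121 (25.3%), and outside the bands in 20.4% and 22.1%. Among the 1429 bins, Spearman's rho between lists was 0.708 for the APH pair and 0.607 for the MMS pair. For the 4 pairs across treatments it ranged from 0.466 (APH 2 and MMS 2) to 0.650 (APH 1 and MMS 1), so that APH 1 and MMS 1 were more alike than the 2 MMS lists. These bins share depth and base composition and are no independent samples.

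**Figure D4:**
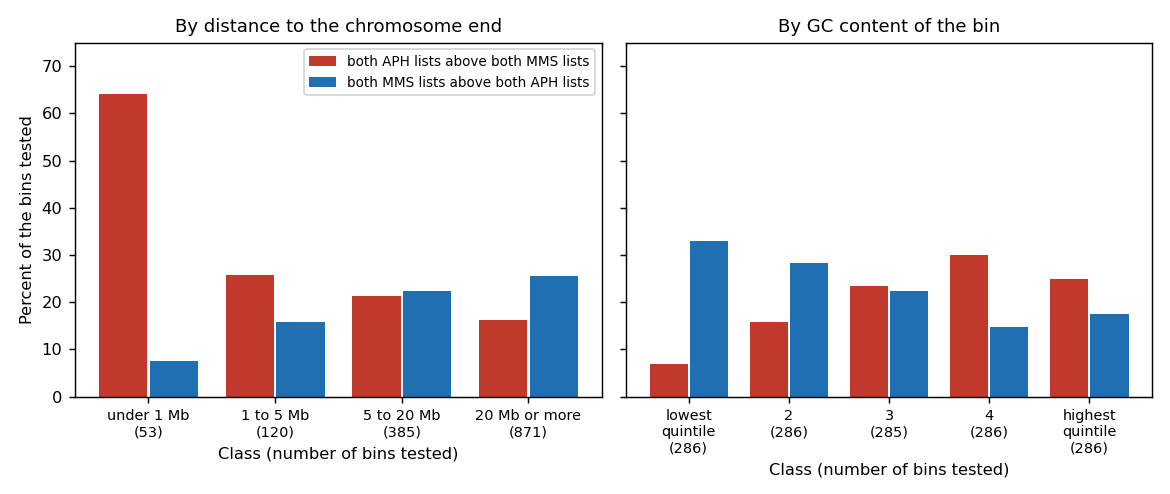
Percent of tested 1 Mb bins (vertical axis) in which both APH lists (red) or both MMS lists (blue) lie above both of the other, by distance to the chromosome end (left) and by GC quintile (right), with the number of bins in brackets. APH is above in 64.2% of terminal bins, and MMS in 32.9% of the bins of the lowest GC quintile.

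Of 19126 protein-coding genes, 9406 were met by a peak of the 4 lists and 447 passed the filter. Both APH lists lay above both MMS lists in 115 of them (25.7%) and both MMS lists above in 130 (29.1%). With median-ratio scaling over genes, which raises the median log2 difference from -0.01 to 0.17, the numbers were 140 and 89, so no balance between the directions can be read from these counts. limma called 19 genes higher under APH (4.25%) and 9 higher under MMS (2.01%). Each call is on the log2 scale of share + 1. Leaving out single lists gave 7 (APH 1), 12 (APH 2), 5 (MMS 1) and 26 (MMS 2) calls, and equal numbers of the strongest peaks gave 0.

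Of the 19 genes higher under APH, 9 lay within 1 Mb of a chromosome end and 11 within 5 Mb. NXN, encoding the thioredoxin-family protein nucleoredoxin, held 49 and 48 APH peaks and 11 and 3 MMS peaks near the start of chromosome 17 (log2 difference 2.36 ± 0.38, limma adjusted p = 1.00e-07). DIP2C on chromosome 10 held 30 and 24 against 4 and 1 (2.64 ± 0.40, adjusted p = 6.18e-09). PLEKHG4B on chromosome 5, encoding a guanine nucleotide exchange factor, held 29 and 25 against 4 and 3 and covers in part the called model LOC124900629. PARD6G on chromosome 18, encoding a cell polarity protein, held 21 and 22 against 4 and 4, and LMLN on chromosome 3, encoding a metallopeptidase, held 11 and 10 against 1 and 1. Shares in untreated cells were above both APH lists in NXN (83.7 and 64.7 against 27.8 and 34.3 per 10000), PLEKHG4B and PARD6G, and below both in DIP2C (10.5 and 13.9 against 17.0 and 17.1). By number, NXN, PLEKHG4B and PARD6G each held fewer untreated than APH peaks, NXN for example 40 and 28 against 49 and 48. Their higher untreated shares thus come with the shorter untreated lists.

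Away from the ends, the genes higher under APH included CELF4, encoding an RNA-binding protein, with 11 and 10 peaks against 2 and 1 (log2 difference 1.76 ± 0.48, adjusted p = 0.00646), and ATP2B2, a plasma membrane calcium pump gene, with 11 and 9 against 1 and 3. Nearer to an end, calcium channel subunit genes were called as well. CACNA1C, 1.97 Mb from an end of chromosome 12, held 26 and 15 against 5 and 5 (1.32 ± 0.39, adjusted p = 0.0133). CACNA1B, only 0.27 Mb from the end of chromosome 9, held 22 and 12 against 3 and 4 (1.47 ± 0.40, adjusted p = 0.00646). The transcription factor gene ZNF423 held 16 and 8 against 5 and 1. CCDC57 (1.04 Mb from an end) and WDR25, and PCSK6 and SH3YL1 within 1 Mb of one, complete the 19, with 7 to 14 APH peaks and 0 to 2 MMS peaks each. PLEKHA6 and HHIPL1 were among the 12 genes with the largest gaps but did not pass (adjusted p = 0.161 and 0.247). All 19 genes were also higher under APH in both lists by covered bases.

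The 9 genes higher under MMS were met by few peaks. CDK5RAP2, encoding a centrosomal protein, held 1 and 1 APH peaks and 7 and 8 MMS peaks (log2 difference -2.22 ± 0.53, limma adjusted p = 0.00149). CDKAL1, encoding a tRNA-modifying enzyme, held 0 and 1 against 5 and 9 (-2.42 ± 0.65, adjusted p = 0.0062), and STK24, encoding a serine/threonine kinase, 0 and 1 against 7 and 5. TBC1D22A, encoding a protein with a Rab GTPase-activating domain, held 8 and 2 against 12 and 11. PREX1, a Rac exchange factor gene, held 2 and 4 against 12 and 6, and PRKCH, a protein kinase C gene, 1 and 2 against 8 and 5. CCNY, a cyclin gene, held 3 and 1 against 4 and 9. Shares in untreated cells were at most 4.18 per 10000 in 7 of these 9 genes, PREX1 (8.37 and 0) and PRMT2 being the exceptions. Of the genes with the largest gaps that did not pass, TBC1D1 (adjusted p = 0.0509), SIL1, SMAD3, PRKDC, RAPGEF1, SPTBN1 and AKNA held 0 to 2 APH peaks and 3 to 7 MMS peaks each. PRKDC encodes the catalytic subunit of the DNA-dependent protein kinase, and SMAD3 a transducer of TGF-β signals.

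PRMT2, an arginine methyltransferase gene at the end of chromosome 21, was an exception among them. It held 2 and 2 APH peaks and 11 and 7 MMS peaks (log2 difference -1.95 ± 0.46, adjusted p = 0.00146), but the APH peaks covered 28.0 and 27.2 kb of it and the MMS peaks 9.4 and 9.8 kb. By covered bases the direction turned, with a log2 difference of 0.75. Here a few broad APH peaks stood against many narrow MMS peaks, and the count of peaks does not measure the extent of γH2AX. Of the other 8 genes higher under MMS, all were also higher in both MMS lists by covered bases.

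**Figure D5:**
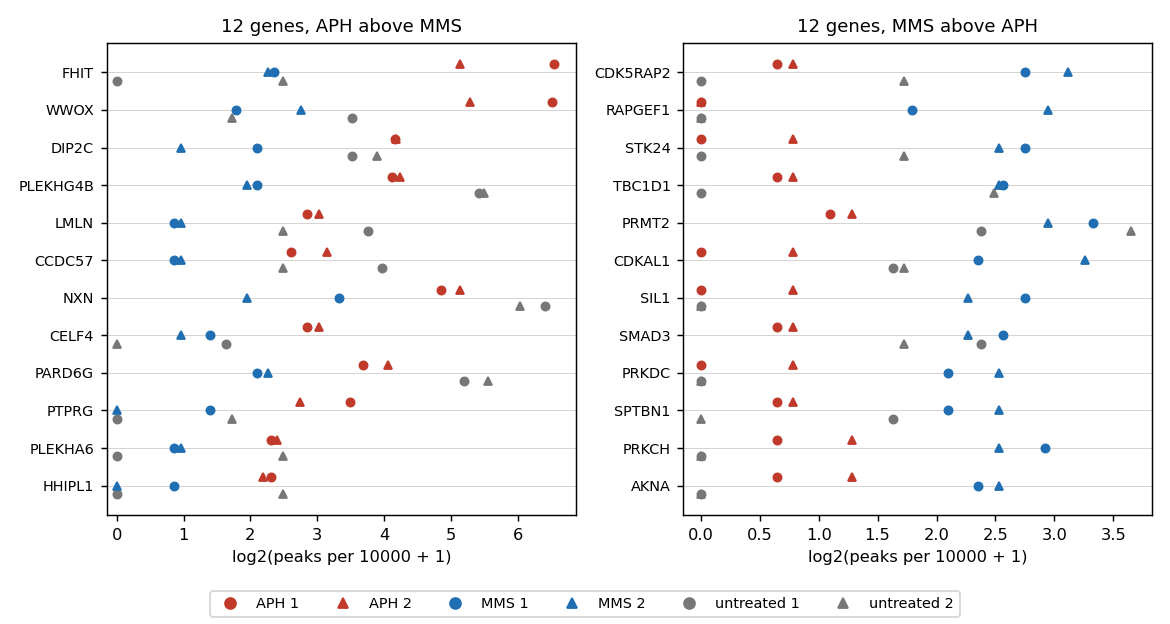
log2(peaks per 10000 + 1) in the 12 genes with the largest gap in each direction (left APH above MMS, right MMS above APH), with APH in red, MMS in blue and untreated in grey, circles for replicate 1 and triangles for replicate 2. FHIT and WWOX reach 92.3 and 90.6 per 10000 in APH 1, and the grey points of NXN, PLEKHG4B and PARD6G lie to the right of the red ones.

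Gene lists chosen for their function gave few testable members. Of 30 genes known from CFSs, 24 were met by a peak and 9 passed the filter. Of these 9, APH was above in 3, WWOX and FHIT among them, MMS in 0, and limma called WWOX and FHIT. Over all 447 tested genes APH was above in 25.7%, so 3 of 9 is near the background. The median log2 difference of the 9 was 0.20, against -0.01 over all 447 genes. In 6 of the 9 the treatments overlapped. Among these, AUTS2 held 21 and 6 APH peaks against 7 and 7 MMS peaks, DAB1 10 and 8 against 5 and 7, NRXN3 12 and 8 against 3 and 6, RORA 2 and 5 against 3 and 5, and RAD51B 10 and 7 against 6 and 7. Of 40 B-cell genes, 2 passed the filter, and MMS was above in both: PAX5, encoding a transcription factor of B-cell identity, held 5 and 7 APH peaks and 8 and 6 MMS peaks, and PLCG2, a phospholipase gene of B-cell receptor signalling, 6 and 9 against 8 and 10. Neither passed limma (adjusted p = 0.402 and 0.323), and with 2 genes, against 29.1% of all tested genes with MMS above, nothing can be read about the list.

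None of the short genes of DNA repair and housekeeping passed the filter, and only sums over each list can be given. The 20 genes of base excision and alkylation repair together had 5.66 and 5.71 peaks per 10000 under APH and 16.4 and 10.5 under MMS, from 10, 8, 20 and 11 peaks. The 33 genes of the replication fork and the ATR pathway were met by 13 and 7 APH peaks and by 20 and 26 MMS peaks. The 80 ribosomal protein genes had 3.96 and 2.86 under APH and 14.8 and 25.8 under MMS, and the 250 zinc finger genes of chromosome 19 had 27.2 and 37.8 against 56.5 and 46.8. In all 4 lists both MMS values were the higher, in the direction of all protein-coding genes together. The 74 replication-dependent histone genes and the 171 olfactory receptor genes of chromosome 11 held 0 to 2 peaks in any of the 4 lists.

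Genes of 500 kb or more took 6.59% and 5.35% of APH peaks and 3.93% and 4.84% of MMS peaks, a difference of 1.58 percentage points (exact permutation p = 0.333). By covered bases the lists overlapped, with 6.44% and 4.53% against 3.72% and 4.53% (exact permutation p = 0.667). The shares of peaks also overlapped without FHIT and WWOX, with 4.85% and 4.66% against 3.87% and 4.74%. Of the 73 long genes that passed the filter, APH was above in 29 (39.7%) and MMS in 14 (19.2%), and limma called WWOX, FHIT, PTPRG and CACNA1C on the APH side and CDKAL1 on the MMS side. In the class of 200 to 500 kb, APH was above in 37 of 172 (21.5%) and MMS in 64 (37.2%). Over all tested genes the shares were 25.7% and 29.1%, and these depend on the scaling. In CFS bands as a whole the lists of the treatments overlapped: they held 30.7% and 28.8% of APH peaks and 29.5% and 28.8% of MMS peaks (exact permutation p = 0.667), against 26.6% of assembled bases. Of 101 autosomal CFS bands with a mean share of at least 2 per 10000, APH was above in 21 and MMS in 31. Over all tested 1 Mb bins the shares were 20.2% and 23.2%, an order that turned with median-ratio scaling. The bands differ from these bins in length, and no excess of MMS in CFS bands can be read from the counts. Among the 101 bands the largest gap on the MMS side was in p24.2 of chromosome 3 (FRA3A), with 2 and 1 APH peaks and 5 and 10 MMS peaks. The gap was larger in p14 of chromosome 5 (FRA5E), where MMS gave 2 and 2 peaks and APH 0 and 0, but this band lay below a mean share of 2. Of the chromosomes, 11 had the largest gap for APH, with 561 and 565 per 10000 against 542 and 529, and 6 the largest for MMS, with 470 and 478 against 399 and 435.

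At single sites the treatments shared little, and so did replicates. Peaks of the 4 lists that overlap by at least 1 bp merged into 48697 sites, of which 1180 were found in both APH lists only, 388 in both MMS lists only and 187 in all 4. Sites found in APH 1 and MMS 1 alone numbered 639, but these counts grow with the length of the lists and do not measure likeness. Of the sites of the APH pair, 28.0% were met by an untreated peak, 36.0% lay in the terminal 5 Mb and 3.64% in FHIT or WWOX. Of those of the MMS pair, 9.02% were met by an untreated peak, 11.3% lay in the terminal 5 Mb and none in FHIT or WWOX. Over all 48697 sites these shares were 5.27%, 13.5% and 0.80%. Sites found in 1 APH and 1 MMS list alone were met by an untreated peak in 9.46% to 13.2%, so the MMS pair did not stand out in this. Sites in all 4 lists were of another kind, with 87.7% met by an untreated peak, 79.1% in the terminal 5 Mb and a median width of 4408 bp, against 1108 bp for the APH pair and 922 bp for the MMS pair.

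Fold enrichments were low throughout the lists, with medians of 2.55 in APH 1, 2.67 in APH 2, 2.64 in MMS 1 and 2.64 in MMS 2. The highest values were 4.37, 3.90, 4.43 and 3.98 in the same order, and the strongest sites of each set lay above the medians. The TBCD site had a fold enrichment of 3.29 in APH 1 and 3.78 in APH 2. It was followed by an intergenic site at chr21:46677806-46680842 with 3.09 and 3.74 and one at chr2:22138-23169 with 3.12 and 3.67, and all 3 were met by peaks of both untreated lists. The FAM53B site had 3.52 in MMS 1 and 3.12 in MMS 2, a site in an intron of the non-coding gene DLEU2 at chr13:49957595-49958437 had 3.14 and 3.29, and the SSRP1 site had 2.77 and 3.62. None of these 3 was met by an untreated peak, and the last 2 were met by both HU lists. The strongest sites of all 4 lists lay over exons of CTC1, a component of the CST complex that protects telomeres and helps to restart replication, at chr17:8234286-8236585 (3.68, 3.45, 4.43 and 3.52) and, next in order, at chr17:8230087-8233164, followed by chr21:46667969-46676114 in a non-coding gene (3.92, 3.64, 3.04 and 3.07).

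Replicates of one treatment differed strongly in some bins. In chr1:7000001-8000000, which holds the end of CAMTA1 and the start of the circadian gene PER3, APH 1 held 15 peaks and APH 2 held 0, while the MMS lists held 4 and 4. In chr7:70000001-71000000, which overlaps AUTS2 and runs past its end, APH 1 held 23 and APH 2 held 1, against 3 and 3. In chr9:21000001-22000000, with the type I interferon genes and CDKN2A, APH 1 held 0 and APH 2 held 10, against 5 and 1. In each of these bins the difference between the APH lists exceeded that between the treatments, and limma did not call them (adjusted p = 0.789, 0.844 and 0.951).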

How the data were processed

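γH2AX ChIP-seq peaks were analysed in 2 APH and 2 MMS lists, with untreated and HU lists beside them. The input library was not analysed here. By the study's methods and the labels, the authors aligned reads to GRCh38 (hg38) with Bowtie2, filtered them with SAMtools, and ran MACS2 in its broad mode, giving a list per replicate. The deposited lists give each peak's position, a score (not used), the fold enrichment as a ratio, and −log10 of the p-value and of the q-value, as the authors' peak caller wrote them. The q-value served only to count peaks. A q-value of at most 0.05 was reached by 97 peaks in APH 1, 183 in APH 2, 20 in MMS 1 and 20 in MMS 2. Untreated lists had 42 and 22 such peaks, and HU lists 62672 and 42142. Nearly all peaks of the APH and MMS lists therefore rest on the unadjusted p-value and did not pass this limit.

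Autosomal peaks were counted per 1 Mb bin (by midpoint) and per protein-coding RefSeq gene (overlap of at least 1 bp), as shares per 10000 peaks of the list. Features with a mean share of at least 2 were fitted with limma 3.58.1 (R 4.3.3) on log2(share + 1), a pseudocount that understates changes of low features, with a variance trend and Benjamini-Hochberg adjustment at 0.05. The fit was tested on simulated data. Of 50 bins changed 4-fold it called 34, and of 50 genes changed 4-fold 32. At 2-fold it called 4 of 50 bins and 7 of 50 genes. Of unchanged features it called 2 of 1229 bins and 7 of 247 genes. The simulated counts had a fixed spread and no differences between whole lists such as that of APH 1. Exact permutation tests were two-sided. Exons and introns follow GENCODE release 44, and CFS bands the list of the study. The named bins and genes were the 12 in each direction with the largest gap between the lower value of one treatment and the higher of the other, the tested members of the lists and the 3 bins with the largest replicate differences, and sites were named by mean fold enrichment. Other bins and genes that limma called, and the sites in FHIT and WWOX, were named after their values were seen. The comparison, the gene lists and the sites shown in FHIT and WWOX were chosen with earlier results of these data known.

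Some of the genes that the naming rule or limma selected are not reported here. Depth is unknown, and the number of lists limits the precision. Alternatives covered peak strength, filters, bin size, covered bases, scaling and each list left out.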

Additional observations from a re-analysis of the deposited data

How the results depend on the processing

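Of the 48 bins and genes with the largest gaps, the direction held in 681 of 683 combinations with the 16 settings in which they could be fitted. The exceptions were PRMT2 with covered bases (0.75 on the log2 scale, a setting chosen after seeing the data) and the bin chr8:67000001-68000000 with the stronger 50% of peaks (0.21). The 48 were chosen from these same lists for their gaps, so most settings could hardly turn their direction. The count of 681 is therefore no support for the directions. FHIT and WWOX passed limma in 14 of 16 settings each, with adjusted p from 2.63e-20 to 0.201 for FHIT. The number of calls was less stable. Bins that passed limma, 15 in all, numbered 0 with equal numbers of the strongest peaks, 7 with the stronger 50%, 24 with covered bases, 32 with 500 kb bins, 6 with 2 Mb bins, 8 with bins that start 0.5 Mb later, 6 without a variance trend, and 0 to 25 when a list was left out, which assumes that the lone list varies like the others. Genes that passed, 28 in all, numbered 0, 5 (stronger 50%), 5 (no filter), 7 (mean share of at least 4) and 5 to 26. With the replicate block 40 bins passed, 32 higher under APH and 8 higher under MMS, and 29 genes, but the labels do not say that a number marks anything shared, and same-numbered lists deviated together with a correlation of 0.107 over bins and 0.0567 over genes. The causes of these changes were not tested. The bins with APH above numbered 177 with 2 Mb bins and 457 to 503 with a list left out, where 3 lists separate more easily, and those with MMS above 507 (no filter), 216 (mean share of at least 4) and 513 to 580. By covered bases they were 202 and 419. Genes with APH above numbered 929 (no filter), 43 (mean share of at least 4) and 152 to 196, and with MMS above 80 (equal numbers), 1402, 29 and 176 to 234, in the same order of settings. The share in CFS bands differed by -1.36 points with covered bases and by -0.300 to 1.53 with a list left out, that in genes of 500 kb or more by 0.448 without FHIT and WWOX, a setting chosen after seeing the data, and by 0.962 to 2.21, and the median GC content by 0.9 to 2.5. Paired by replicate number, the differences of shares are the same by construction.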
